A study of Rattus norvegicus with 8 samples.

Results

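A split of 8 rat liver arrays into 2 sets of 4, which crosses the exposure groups of the study, is described here. Set 1 holds control pools 1, 2 and 3 and AhR pool 4, and set 2 holds control pool 4 and AhR pools 1, 2 and 3, so that all 8 of the 8 arrays belong to 1 set or the other. The sets were chosen by the measured values themselves, the deposited log2 ratios of all probes, as the split that gave the most differing probes of those tried. Every set difference below was therefore part of the choice and is a description without a test, and the account is exploratory.

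The animals were male Sprague-Dawley rats studied as adults at 78 to 86 days of age. Control offspring came from dams given corn oil alone, and AhR offspring from dams given, in corn oil, a mixture of agonists of the aryl hydrocarbon receptor (AhR) at 1.8 ng of dioxin toxic equivalents per kg per day. Dosing of the dams ran over gestation and lactation, and the longest exposure named in the labels ended on postnatal day 20. Each array carried liver RNA pooled from 2 rats, 8 pups per group, in the Cy5 channel, against a universal rat reference RNA in the Cy3 channel. The labels do not say whether pools shared litters, so the spread given is that between pools. A log2 ratio here is log2 of Cy5 over Cy3 in the authors' deposited table, and a set difference is the mean of set 2 minus the mean of set 1.

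Adult liver handles amino acid nitrogen, bile acids, lipoproteins and foreign compounds, and many of its transcripts follow a daily rhythm. In the circadian clock, the CLOCK or NPAS2 protein pairs with BMAL1 to drive genes such as Per2, Nr1d1 and Dbp through E-box sequences, and NR1D1 in turn represses Bmal1. Transcripts of the driving arm and of the driven arm therefore peak at opposite times of day in rodent liver. The labels used here give no time of day for tissue collection.

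Hepatocyte markers were present in the Cy5 channel. All 20 of the 20 hepatocyte markers listed were measured, and the serum albumin gene Alb reached a mean log2 Cy5 signal of 17.59. The same probe had a mean log2 Cy3 signal of 16.89, so the reference RNA was also bright for albumin, and these values do not set the liver RNA apart from the reference.

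The first principal component of the 17904 kept probes held 29.06% of the variance between arrays and the second 18.90%. On the first, set 1 lay at -22.12 (control pool 1), -17.69 (control pool 2), 2.66 (control pool 3) and -15.83 (AhR pool 4), and set 2 at 20.09 (control pool 4), 14.85 (AhR pool 1), 6.59 (AhR pool 2) and 11.45 (AhR pool 3). The sets did not overlap there, but control pool 3 lay closer to AhR pool 2 than to any array of its own set. Across probes, which are not independent replicates, the 4 arrays of set 2 correlated with one another at 0.64 to 0.71. Control pool 3 correlated with its own set at 0.44 to 0.59 and with set 2 at 0.58 to 0.64. Control pool 1 correlated with its own set at 0.44 to 0.55 and with set 2 at 0.39 to 0.58, highest with AhR pool 2. It lay alone at 21.95 on the second component. Set 2 was the tighter of the sets, and control pools 1 and 3 both stood apart within set 1.

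**Figure D1:**
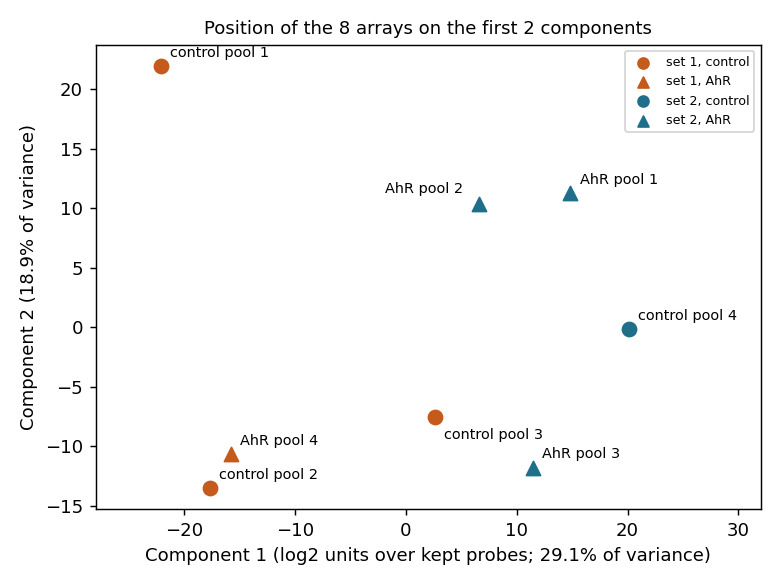
Positions of the 8 arrays on the first (x) and second (y) principal component of the probe-centred log2 ratios, one point per array, with colour for the set and shape for the exposure group. The 4 arrays of set 2 lie at 6.59 or above on the first component, and control pool 3, at 2.66, is the set 1 array nearest to them.

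In the set contrast, a difference of at least 1.5-fold in which the 4 arrays of one set all lay above the 4 of the other was found for 157 of 17904 probes, 0.877% of those kept. Of these, 25 probes (0.14%) were higher and 132 (0.737%) lower in set 2, a split that turned to 561 higher and 13 lower under normexp and median centring. Without the fold requirement, 1532 probes (8.56%) did not overlap, 754 higher (4.21%) and 778 lower (4.35%). With named probes reduced to 1 per gene, 52 of 10037 genes (0.518%) were past this mark, 16 higher (0.159%) and 36 lower (0.359%), against 300 higher and 3 lower under median centring. Regardless of fold, 842 genes (8.39%) did not overlap, 467 higher (4.65%) and 375 lower (3.74%). Just inside the fold mark lay Zmym4 at -0.60, Mphosph6 at -0.59 and Dpyd at 0.59, and just outside it Tank at 0.58, Gpr63 at -0.57 and Clock at -0.57. Leaving out control pool 3 raised the number of probes from 157 to 279, and leaving out AhR pool 3 raised it to 259. Sets with fewer arrays avoid overlap more readily. Regardless of fold, genes without overlap rose from 842 whichever array was left out, from 1021 without control pool 4 to 1739 without control pool 3.

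Signal strength differed between the sets as well. The 90th percentile of Cy5 spot intensity was 4893, 4290, 5078 and 4330 units in control pools 1, 2 and 3 and AhR pool 4, and 5960, 5319, 8218 and 5425 in control pool 4 and AhR pools 1, 2 and 3. By this upper percentile the sets did not overlap. By the median Cy5 intensity they did, with AhR pool 1 at 177 units and control pool 3 at 182. The median log2 ratio of the 10 spike-in control probes lay between -0.41 and 0.42 in set 1 and between -0.94 and -0.13 in set 2, and these ranges overlapped. By the place on the slide, 3 of the 4 arrays of set 1 lay in row 1 and 3 of the 4 arrays of set 2 in row 2. A set difference within row 1 therefore rests on AhR pool 2 alone for set 2. Within row 2 it rests on control pool 2 alone for set 1. The part of signal strength, spike-in ratio and slide row in the set differences was not tested.

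**Figure D2:**
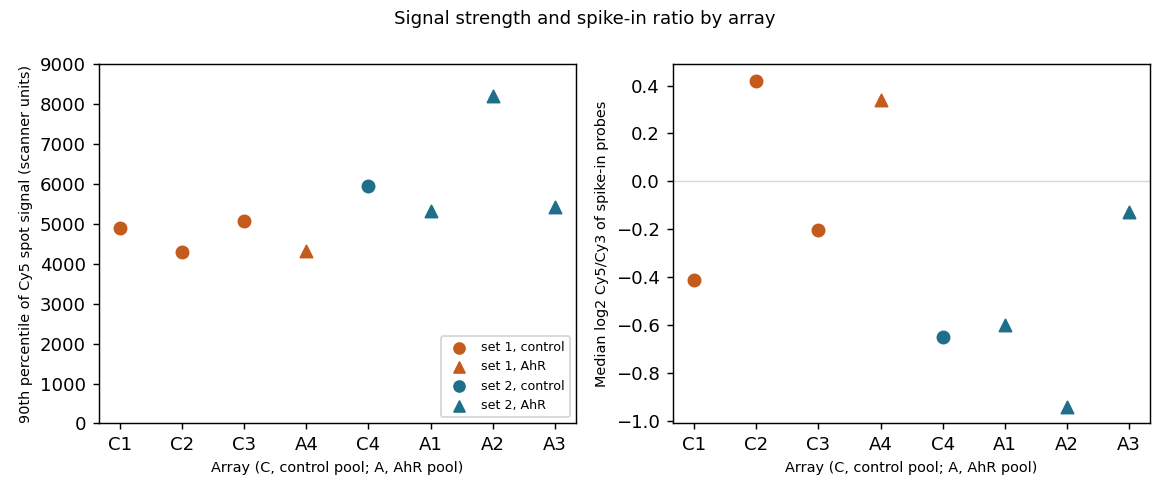
The 90th percentile of Cy5 spot signal (left, scanner units) and the median log2 Cy5/Cy3 of the spike-in probes (right), one point per array. Set 2 starts at 5319 units and set 1 ends at 5078, while the spike-in ratios of the sets overlap.

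The gene highest in set 2 among those that did not overlap was Slc35c2, a member of the nucleotide-sugar transporter family of the secretory pathway. Its log2 ratios were -1.45, -1.19, -0.57 and -0.86 in set 1 (control pools 1, 2 and 3, then AhR pool 4, as in all such lists here) and 0.41, 1.08, 0.73 and 0.75 in set 2 (control pool 4, then AhR pools 1, 2 and 3). All of set 1 lay below 0 and all of set 2 above it, a difference of 1.76 or 3.4-fold. Il33, a cytokine of the interleukin-1 family released by damaged cells, stood at -0.12, -0.73, -0.42 and -0.89 in set 1 and at 0.95, 0.54, 0.04 and 0.36 in set 2. It was highest in control pool 4, and the difference was 1.01 or 2.02-fold. Cib2, a calcium-binding protein, had -0.97, -0.34, -0.19 and 0.05 in set 1 and 0.30, 0.83, 0.50 and 0.77 in set 2, a difference of 0.97.

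The other 9 of the 12 leading genes higher in set 2 differed by 0.61 to 0.73. Amacr, a racemase needed for bile acid synthesis and for branched fatty acids, had 0.52, -0.20, -0.19 and 0.18 in set 1 and 0.87, 0.69, 0.75 and 0.78 in set 2. The 4 arrays of set 2 lay within 0.18 of one another, against a wider set 1, and the difference was 0.70. Lcn2, an acute-phase protein that binds bacterial siderophores, had -0.53, -0.53, -0.57 and -0.41 in set 1 and -0.05, 0.22, 0.20 and 0.31 in set 2, a difference of 0.68. Control pool 4 was the lowest of set 2 and still above all of set 1. Fam111a, a protease, differed by 0.73, Snw1, a splicing factor, by 0.69, Kpna4, an importin, by 0.69, Prss32, a serine protease, by 0.63, Selenow, a selenoprotein, by 0.62, and Adrm1, a ubiquitin receptor of the proteasome, by 0.61. Bhlhe40, a clock repressor, is described with the clock genes.

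Among genes lower in set 2, Slc6a6, the taurine transporter, led. Its log2 ratios were 0.39, 0.03, -0.40 and 1.40 in set 1 and -0.52, -1.16, -0.92 and -1.11 in set 2, a difference of -1.28, or 2.44-fold higher in set 1. AhR pool 4 stood highest, and control pools 3 and 4, at the meeting point of the sets, were 0.12 apart. Pgpep1, a peptidase that removes N-terminal pyroglutamate, had 1.27, 0.85, 0.28 and 0.35 in set 1 and -0.65, -0.67, -0.29 and -0.40 in set 2, a difference of -1.19, or 2.28-fold. Here every array of set 1 was above 0 and every array of set 2 below it. Inhba, which encodes the activin A subunit, had -0.13, 0.53, 0.62 and 0.49 in set 1 and -0.28, -0.68, -0.68 and -0.47 in set 2, a difference of -0.90. For Inhba, control pools 1 and 4 lay closest to the other set.

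Fabp7, a fatty acid binding protein best known from brain, differed by -0.98, Pcgf3, a Polycomb group protein, by -0.94, H1f4, a linker histone, by -0.82, and Cpeb4, a regulator of polyadenylation, by -0.82. Sema6c, a semaphorin, differed by -0.80, Rspry1 by -0.77 and Znrf4, a ubiquitin ligase, by -0.76. Vom2r34, a vomeronasal receptor, differed by -0.91, with AhR pool 3 at 0.64 next to the lowest set 1 array. Vom2r34 and H1f4 belong to families of closely similar genes, so that their probes may also read relatives.

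**Figure D3:**
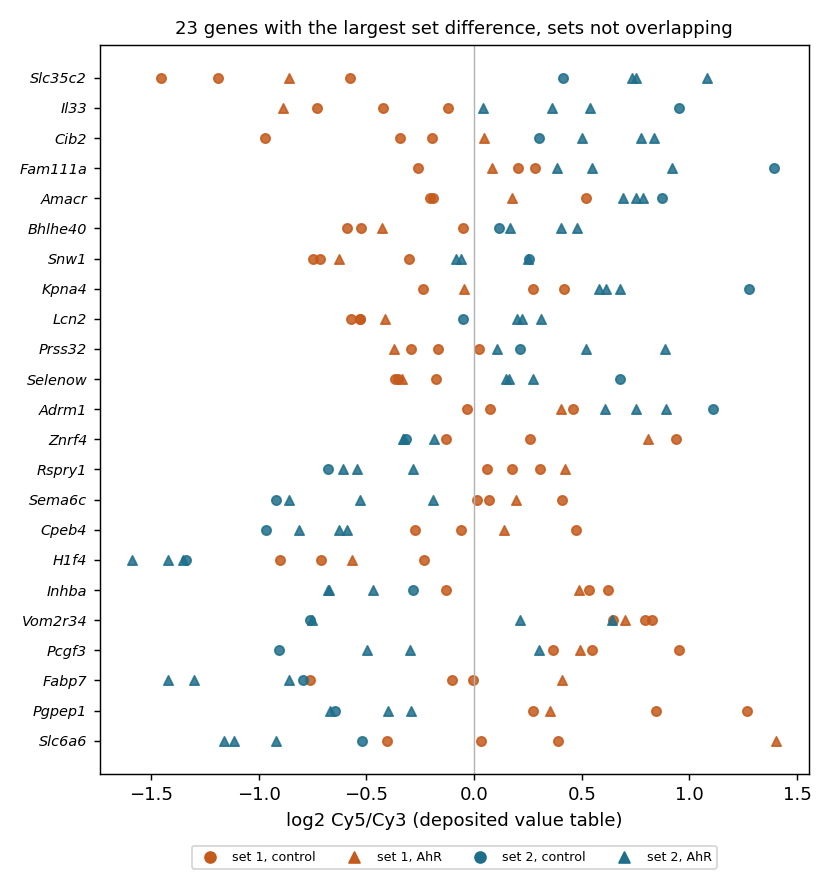
Log2 Cy5/Cy3 (x) of 23 genes with the largest differences among those whose sets do not overlap, one point per array, with colour for the set and shape for the exposure group. The upper 12 genes are higher in set 2, from Slc35c2 at 1.76 to Adrm1 at 0.61, and the lower 11 are higher in set 1, with Slc6a6 at -1.28.

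Second probes gave a mixed picture. Of the 52 genes past the fold mark, 12 had another kept probe, and 11 of these 12 differed in the same direction. Only 3 of the 12 did not overlap, and 1 was also past 1.5-fold. For Fam111a the other probe differed by 0.80 and for Cpeb4 by -0.52, whereas for Sema6c it differed by -0.08 and for Vom2r34 by -0.04. For most of these genes, then, the value rests on 1 probe.

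The probes lower in set 2 were mostly unnamed. A gene name was found for 47 of the 132 (35.6%) and for 18 of the 25 probes higher in set 2 (72.0%), against 65.3% of all kept probes. Of the 132, 47 carried no accession at all, against 10.6% of all kept probes. A group of 45 probes followed the profile of the Grin2d probe to within 0.3 (log2, after centring) on every array, a tolerance chosen after the values were seen, and 40 of them were among the 132. Their median log2 ratios were 0.33, 0.11, 0.01 and 0.27 in set 1 and -0.78, -0.18, -0.67 and -0.43 in set 2. AhR pool 1 lay nearest to set 1 and control pool 4 farthest from it. Of the 45 probes, 36 had no accession and 4 were named, namely Grin2d, Klhdc8a, Rspry1 and Sema6c. The log2 Cy5 signals of the 45 probes ran from 6.76 to 16.7 with a median of 13.4. The Grin2d probe was itself among the 132, so that many of its followers are there too follows from the choice of reference. No other reference profile was counted.

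The circadian clock gave the largest single set difference, though not one without overlap. Dbp, a transcription factor whose mRNA swings strongly over the day, had 0.36, -1.34, -1.51 and -2.19 in set 1 and -0.41, 1.5, 1.27 and 0.09 in set 2. Control pool 1 lay above 2 of the set 2 arrays, and the difference was 1.78. Between control arrays alone the difference was 0.43, and between AhR arrays alone 3.14, each with 1 array of one set against 3 of the other. Tef, a relative of Dbp, had 0.30, -0.47, -0.15 and -0.35 in set 1 and -0.15, 0.91, 0.68 and 0.20 in set 2, with a difference of -0.04 among control arrays and 0.95 among AhR arrays. For both genes AhR pools 1 and 2 were highest and AhR pool 4 lowest or next to it.

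Bmal1, Npas2 and Clock of the driving arm had lower means in set 2 by the probes used. Bmal1 had -0.54, 0.48, 0.24 and 0.99 in set 1 and 0.68, -0.63, -1.34 and -0.26 in set 2, with control pools 1 and 4 on the far side of the other arrays of their sets. Its difference was -0.68 over all arrays, 0.62 among control arrays and -1.73 among AhR arrays, so the direction turned within the control group. Npas2 had 0.19, 0.52, 0.56 and 0.97 in set 1 and 0.42, -0.37, -0.32 and -0.14 in set 2, a difference of -0.66. The sets overlapped through control pools 1 and 4 here too, the difference among control arrays was -0.01, and a second, dimmer Npas2 probe differed by 0.12, the other way. Clock had 0.08, 0.50, 0.01 and 0.55 in set 1 and -0.26, -0.05, -0.55 and -0.26 in set 2, a difference of -0.57 without overlap. A second, dimmer Clock probe differed by -0.26 with overlap.

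The repressors lay on the side of Dbp or near 0. Bhlhe40, which represses CLOCK and BMAL1 targets, had -0.59, -0.52, -0.05 and -0.43 in set 1 and 0.12, 0.48, 0.17 and 0.40 in set 2, a difference of 0.69 without overlap. Per2 differed by 0.63, with -0.20 among control and 1.48 among AhR arrays. Nr1d1 differed by 0.45, with all 4 arrays of set 2 between 0.33 and 0.60 and control pool 3 of set 1 at 0.38. Per3, Cry1, Cry2 and Nr1d2 differed by 0.09, 0.09, -0.01 and 0.05, and a second, dimmer Per3 probe differed by 0.28 without overlap. Of the 10 measured core clock genes of 15 listed, 6 were higher and 4 lower in set 2, with a median of 0.07. Relative to all genes this median was 0.05, and -0.04 under median centring. By the 1 probe used for each gene, Clock and Bhlhe40 were without overlap and the other 8 were not. That is 2 of 10 members, against 8.39% of all genes, and nothing is read from so small a count.

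Among clock output genes, 9 of the 10 measured of 12 listed were higher in set 2, with a median of 0.37, against 5401 of 10037 genes and a median of 0.02 over all genes, and none of the 10 was without overlap. Nampt, the rate-limiting enzyme of NAD salvage, differed by 0.89, Wee1, a cell cycle kinase, by 0.64, and Noct, an NADP phosphatase, by 0.56. Noct spanned from -1.72 in AhR pool 4 to 1.08 in AhR pool 2, and its difference was 0.13 without AhR pool 4. Usp2 differed by 0.18, Tsc22d3 by 0.17, Alas1, which starts haem synthesis, by 0.11, Gys2, liver glycogen synthase, by 0.05, and Nfil3, a repressor at D-boxes, by -0.23. The list median was 0.05 among control arrays and 0.83 among AhR arrays. It was 0.14 without AhR pool 4, 0.16 without AhR pool 2, 0.23 without AhR pool 1 and 0.55 without control pool 4, so that these 4 arrays set its size.

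**Figure D4:**
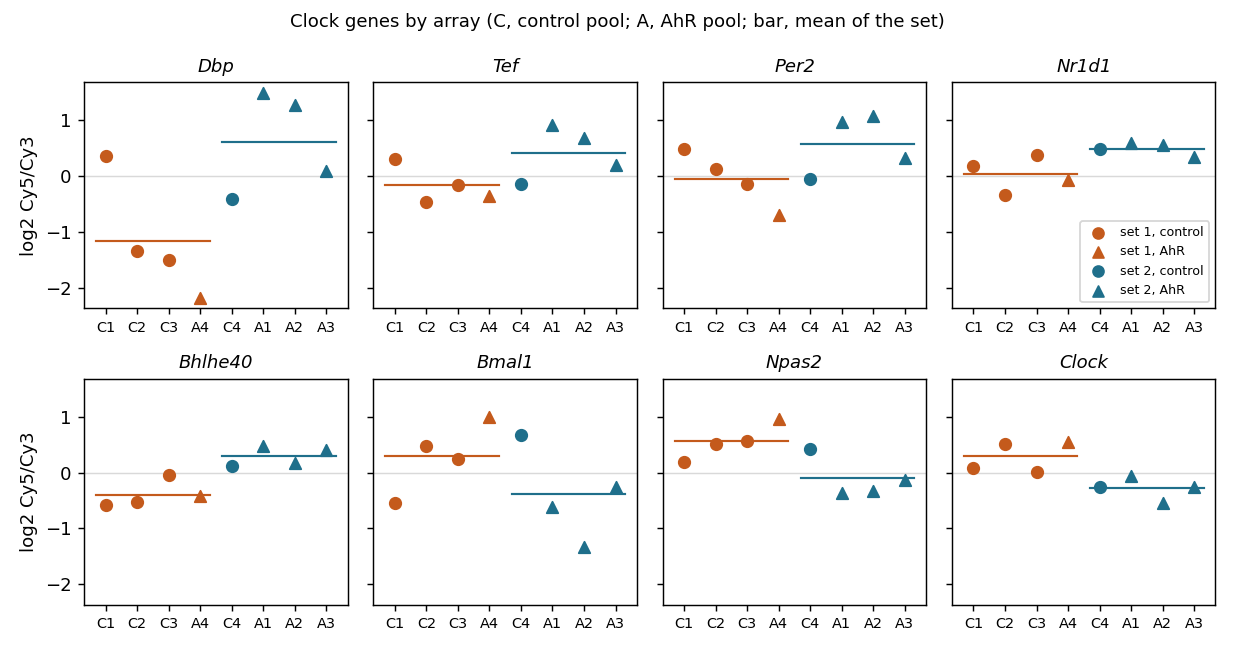
Log2 Cy5/Cy3 of 8 clock genes (y) on each of the 8 arrays (x), with a bar at the mean of each set. Dbp, Tef, Per2, Nr1d1 and Bhlhe40 have higher means in set 2 and Bmal1, Npas2 and Clock lower ones, while only Bhlhe40 and Clock separate all arrays, and control pools 1 and 4 lie on the other side of their sets for Dbp, Tef and Bmal1.

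Promoters from RefSeq (assembly GRCr8), windows of 300 bases of which most lie before a start, were found for 17 of the 20 measured clock genes, 21 promoters in all. The E-box of CLOCK and BMAL1 (CACGTG, its own reverse complement) was in 3 of the 21, 1 for each of 3 genes, against 6.42% of 33469 promoters of the same length. The D-box (TTATGNAA) was in 1 of the 21 and 3.66% of all promoters, and the RORE core (AGGTCA) in 4 of the 21 and 16.2% of all promoters, both read on either strand. Dbp and Per2 had higher means in set 2 and no CACGTG in the promoters found. Only these exact letters were searched, in windows of 300 bases, so E-boxes of other spelling or place were not looked for. All 3 promoters with an E-box belong to genes with higher means in set 2. Higher means were also found for 6 of the 10 core clock and 9 of the 10 clock output genes measured, so nothing is read from this direction. The 3 promoters are shown, and the capitals mark the E-box. They lie at chr10:84229405-84229704 on the minus strand for Nr1d1, which has a second promoter without an E-box, at chr4:143174200-143174499 on the plus strand for Bhlhe40, and at chr7:115206577-115206876 on the plus strand for Tef. A match to these letters is a description and not a site in use.
Nr1d1: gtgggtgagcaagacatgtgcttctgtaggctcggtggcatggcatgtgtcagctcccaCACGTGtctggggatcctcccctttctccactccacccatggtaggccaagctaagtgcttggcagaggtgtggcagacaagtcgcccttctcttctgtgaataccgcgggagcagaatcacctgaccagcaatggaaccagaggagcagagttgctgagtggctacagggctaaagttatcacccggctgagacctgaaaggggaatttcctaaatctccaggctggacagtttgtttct
Bhlhe40: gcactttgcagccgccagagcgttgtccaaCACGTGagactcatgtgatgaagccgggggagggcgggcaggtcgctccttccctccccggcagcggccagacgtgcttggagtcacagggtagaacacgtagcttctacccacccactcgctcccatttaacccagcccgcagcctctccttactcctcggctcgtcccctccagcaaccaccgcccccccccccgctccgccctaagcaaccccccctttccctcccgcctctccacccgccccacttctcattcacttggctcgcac
Tef: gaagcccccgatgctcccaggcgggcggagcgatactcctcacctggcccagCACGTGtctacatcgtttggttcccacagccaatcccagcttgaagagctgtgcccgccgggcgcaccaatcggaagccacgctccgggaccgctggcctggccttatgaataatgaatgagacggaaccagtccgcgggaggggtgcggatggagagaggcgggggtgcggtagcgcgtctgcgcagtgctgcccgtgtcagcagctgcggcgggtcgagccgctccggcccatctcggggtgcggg

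Liver functions were compared by gene list, each as its counts and median beside 5401 of 10037 genes higher in set 2 and a median of 0.02 over all genes. Median centring in place of loess moved the median of all genes to 0.23, so that directions below are stated for the deposited ratios and, where they turn under that scaling, this is said beside them. The apolipoprotein list, which covers the protein parts and enzymes of lipoproteins, had 15 of 18 measured members (of 19) higher in set 2 and a median of 0.23. Its mean over members lay between -0.03 and 0.14 on set 1 arrays and between 0.18 and 0.33 on set 2 arrays, with no overlap. Apoc3, an inhibitor of lipoprotein lipase, had 0.06, 0.29, 0.32 and 0.42 in set 1 and 1.03, 0.57, 0.78 and 0.65 in set 2, a difference of 0.48 without overlap. Control pool 4 was the highest array for Apoc3. Lipc, hepatic lipase, and Abca1, the cholesterol exporter, also did not overlap, with differences of 0.29 and 0.28, which makes 3 of 18 members against 8.39% of all genes. Lcat, which esterifies plasma cholesterol, differed by 0.36 and Apoc2, the cofactor of lipoprotein lipase, by 0.34, with overlap. Among control arrays Lcat and Apoc2 differed by 0.72 and 0.75, and among AhR arrays by -0.06 and -0.21. The list median was 0.32 among control arrays and 0.03 among AhR arrays.

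Amino acid catabolism and the urea cycle had 25 of 32 measured members (of 36) higher in set 2 and a median of 0.23, with 0.30 among control and 0.29 among AhR arrays. Sds, which deaminates serine, had -0.20, -0.07, -0.17 and -1.38 in set 1 and 0.68, 0.96, 0.83 and -0.53 in set 2, a difference of 0.94. Within each exposure group set 2 lay above set 1, and AhR pools 3 and 4 were the 2 lowest arrays. Ass1 of the urea cycle had -0.04, -0.22, 0.22 and 0.20 in set 1 and 0.98, 0.88, 0.16 and 0.39 in set 2, a difference of 0.56, and Got1, an aspartate aminotransferase, differed by 0.59. Members without overlap were Asl of the urea cycle at 0.47, Hpd of tyrosine breakdown at 0.42 and Agxt of glyoxylate disposal at 0.48, which is 3 of 32 members, a share near the 8.39% of all genes without overlap.

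The endoplasmic reticulum stress and ATF4 list had 17 of 23 measured members (of 25) higher in set 2, none without overlap, and a median of 0.20. Herpud1, which serves in degradation of misfolded proteins, differed by 0.52, and Creld2 and Dnajb9, a pair of luminal folding factors, by 0.49 and 0.35. Among control arrays alone Herpud1 differed by -0.07. The 6 lower members were Atf4 at -0.29, Trib3 at -0.18, Psat1 at -0.17, Ddit3 at -0.11, Sesn2 at -0.09 and Dnajc3 at -0.01. Asns at 0.29 and Chac1 at 0.19 were higher, so the ATF4 part of the list was mixed. Within slide row 1 the list median was -0.04 and within row 2 it was 0.09, and it was 0.12 without control pool 4 and 0.31 without AhR pool 2. The proteasome list had 23 of 30 measured members (of 31) higher in set 2 and a median of 0.11, and 4 of 30 did not overlap, against 8.39% of all genes. These were Psmb4 at 0.23, Psmb5 at 0.22, Psmb7 at 0.33 and Psmc1 at 0.20, all core or base subunits, and they were chosen after their values were seen. Immediate early genes had 12 of 17 measured members (of 20) higher and a median of 0.15, which was 0.07 without control pool 4 or without AhR pool 4 and 0.03 within slide row 1. Relative to all genes this median was 0.13, and 0.02 under median centring. Nr4a1 differed by 0.51, Dusp1 by 0.43 and Jun by -0.31, all with overlap. The direction turned for Nr4a1 among AhR arrays (-0.17) and for Jun among control arrays (0.11).

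Several metabolic lists leaned to set 1 by little. Cholesterol synthesis and uptake had 11 of 25 members higher in set 2 and a median of -0.09. This median was -0.23 among control arrays and 0.20 among AhR arrays, and it was 0.05 without control pool 1 and 0.03 without control pool 4. Bile acid synthesis and transport had 6 of 19 measured members (of 23) higher and a median of -0.08, with -0.22 to -0.02 when 1 array was left out (lowest without control pool 2, highest without control pool 1). In that list Amacr and Abcc2, the canalicular conjugate exporter, were higher in set 2 without overlap (0.70 and 0.43), and Slco1b2, a sinusoidal uptake transporter, was lower without overlap (-0.40). That is 3 of 19 members, against 8.39% of all genes, and Abcc2 and Slco1b2 were chosen after their values were seen. Abcg5 and Slco1a4 differed by -0.70 and -0.67, with overlap. Targets of CAR and PXR, the drug-sensing nuclear receptors, had 6 of 17 measured members (of 18) higher and a median of -0.11, with -0.24 to -0.004 when 1 array was left out (lowest without control pool 2, highest without control pool 1), and 0.001 among control arrays. Under median centring the 3 medians were 0.22 for cholesterol, 0.23 for bile acids and 0.19 for CAR and PXR targets, which relative to all genes is -0.01, 0.003 and -0.03. Within slide row 2 the medians of all 3 were above 0, at 0.06 for cholesterol, 0.29 for bile acids and 0.26 for CAR and PXR targets. None of these 3 lists had array means that separated the sets.

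**Figure D5:**
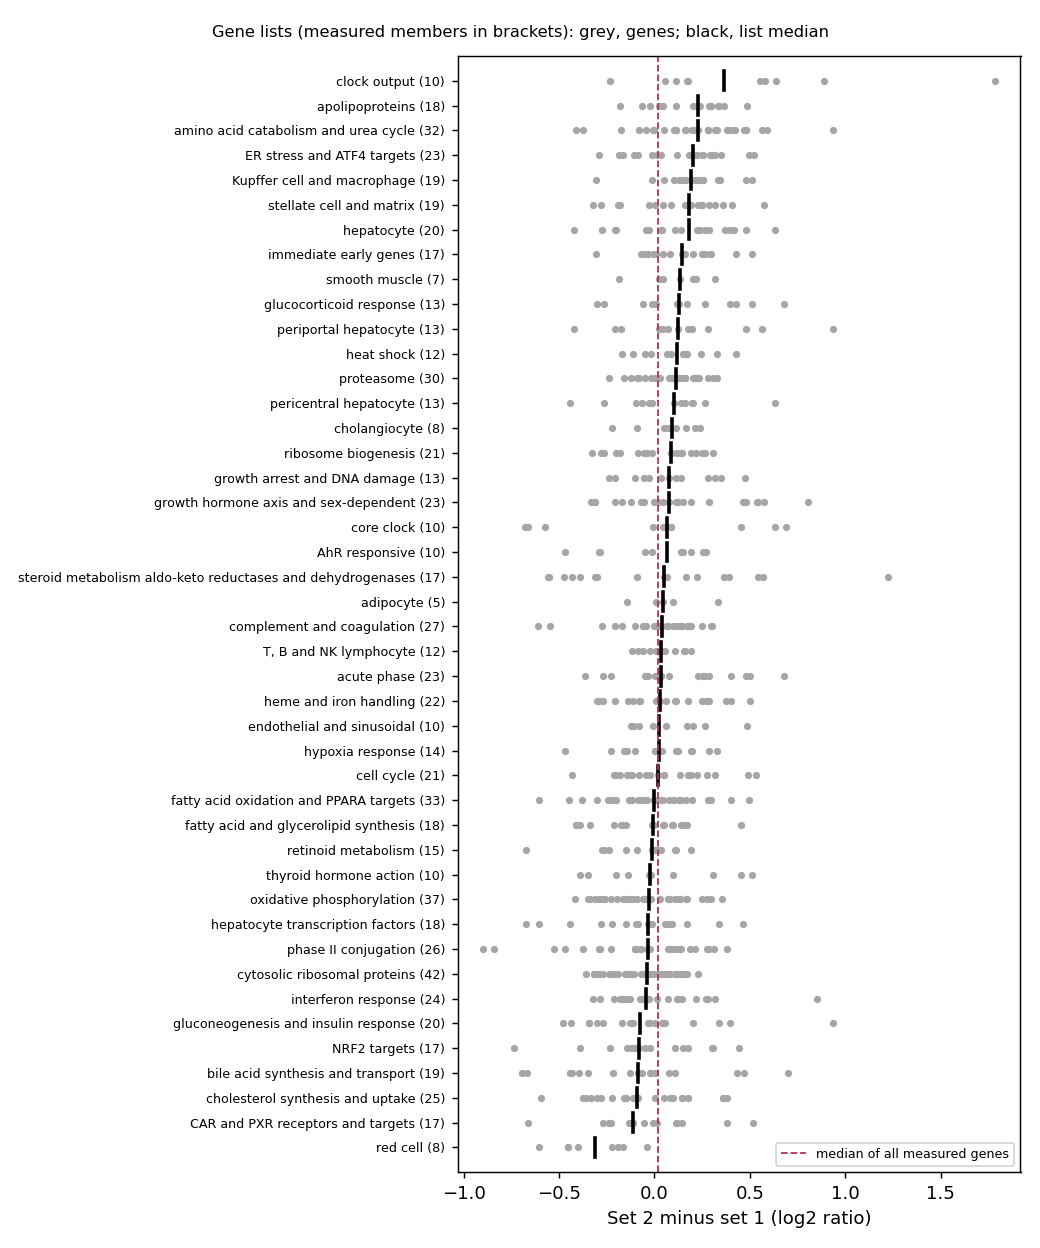
Set difference (x, log2 ratio, set 2 minus set 1) of every measured gene (grey points) in the lists with at least 5 measured members (y), with the list median in black and the median of all genes as a dashed line. Clock output has the highest median, 0.37, and red cell genes the lowest, -0.31, while most list medians lie within 0.2 of the line.

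Outside the leading lists, these genes without overlap were chosen after their values were seen. Cyp2c11, the main male-specific P450 of rat liver, had 0.39, 0.40, 0.72 and 0.54 in set 1 and 1.11, 0.86, 1.31 and 0.91 in set 2, a difference of 0.54. Stat5a, a mediator of growth hormone signalling, differed by -0.33. The nuclear receptors Rxra and Nr2f2 differed by -0.67 and -0.60, and the coagulation factors F7 and F9 by -0.55 and -0.61. Mcm2, a replication helicase subunit, stood between -0.71 and -0.58 in set 1 and between -0.45 and -0.02 in set 2, a difference of 0.49. All of these lie among the 842 genes (8.39%) without overlap, and nothing is read from their number. The growth hormone and sex-dependent list, which holds Cyp2c11 and Stat5a, had 14 members higher and 9 lower in set 2, with a median of 0.07. In it Cyp2c12 differed by 0.80 and Stat5b by -0.004, both with overlap. The complement and coagulation list, which holds F7 and F9, had 17 of 27 measured members higher and a median of 0.04.

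Markers of the cell types in liver moved little or unevenly, and in bulk tissue fewer cells of a type and less RNA per cell cannot be told apart. Of the 20 hepatocyte markers, 14 were higher in set 2, with a median of 0.18 and array means from -0.18 to 0.06 in set 1 and from -0.09 to 0.13 in set 2. Cyp2e1, a pericentral P450, differed by 0.63 and Cps1, the first urea cycle enzyme, by 0.48. For Cyp2e1 the difference was 1.38 among control arrays and -0.003 among AhR arrays, and it was 0.09 within slide row 1. Alb, in contrast, had 0.23, -0.28, -0.04 and -0.29 in set 1 and -0.69, -0.40, -0.31 and -0.68 in set 2, a difference of -0.42 without overlap. Alb thus lay against the median of its own list.

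Kupffer cell and macrophage markers had 17 of 19 measured members (of 20) higher in set 2 and a median of 0.19. Their array means ran from -0.73 (control pool 1) to 0.17 in set 1 and from -0.16 to 0.40 (AhR pool 3) in set 2, and without control pool 1 the median was -0.02, without AhR pool 3 it was 0.05, without control pool 3 it was 0.30, and within slide row 2 it was -0.04. Vsig4, Adgre1 and Clec4f, surface proteins of resident macrophages, differed by 0.51, 0.48 and 0.34, and control pool 1 was the lowest array for all 3. Stellate cell and matrix markers had 14 of 19 measured members (of 21) higher and a median of 0.18, with array means from -0.59 to -0.29 in set 1 and from -0.40 to -0.20 in set 2. Without control pool 1 this median was 0.10, and within slide row 1 it was -0.04. Tgfb1 differed by 0.58, Col1a1 by 0.41 and Sparc by 0.36, while Col4a1, the basement membrane collagen, was lower without overlap (-0.28). Smooth muscle markers had 6 of 7 measured members (of 10) higher and a median of 0.13, with Tagln at 0.32, Actg2 at 0.22 and Myh11 at 0.20, and the median was 0.05 without control pool 2, 0.06 without control pool 1, 0.07 without AhR pool 4 and 0.08 without AhR pool 3.

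Red cell genes were all lower in set 2, 8 of 8 measured (of 13), with a median of -0.31. Array means ran from -0.84 to 0.43 in set 1 and from -1.19 to -0.32 in set 2, and the highest was control pool 2. Ahsp, the chaperone of alpha globin, had -1.76, 0.34, -1.64 and -1.82 in set 1 and -1.33, -2.12, -0.96 and -2.28 in set 2. Control pool 2 stood alone at the top, and without it the difference of -0.45 became 0.07 and the list median -0.03. Within slide row 1 the list median was 0.48 and within row 2 it was -1.15, where control pool 2 was the only set 1 array. Hba-a3, an alpha globin of a family of near-identical copies, differed by -0.61 and Slc4a1, the anion exchanger of red cells, by -0.45. Hba-a2, Epb42, Ermap and Tspo2 were among the members not measured.

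The labelled exposure contrast, AhR minus control, is the only one tested, and it shares all 8 arrays with the set contrast, since 3 of the 4 arrays of each set come from 1 exposure group. Limma called 0 of 17904 probes (0.0%) at a Benjamini-Hochberg adjusted p of 0.05, and 299 probes (1.67%) had an unadjusted p below 0.05. That share is below the 0.05 that would be met on average without any exposure difference, so these probes are not read as exposure hits. Among the 52 genes past the set mark, the exposure difference ran from -0.69 to 1.13, and the lowest limma adjusted p was 1.00. Slc35c2 had an exposure difference of 1.13 (SE 0.45) beside a set difference of 1.76, and Slc6a6 one of -0.32 (SE 0.48) beside -1.28. Il33 had 0.09 (SE 0.36) beside 1.01, Bhlhe40 0.42 (SE 0.21) beside 0.69, and Dbp 0.89 (SE 0.70) beside 1.78. Cyp1a2, the AhR-inducible P450 of adult liver, had -1.20, -2.02, -1.93 and -0.98 in set 1 and -1.26, -0.92, -1.87 and -1.51 in set 2. Its sets overlapped, and its set difference was 0.14 and its exposure difference 0.28 (SE 0.24). Cyp1a1 had no kept probe. The AhR-responsive list had 5 of 10 measured members (of 17) higher and 5 lower in set 2, with a median of 0.07, which was -0.04 without AhR pool 4.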

How the data were processed

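Per the file headers, the deposited intensity values are spot and background brightness from Agilent Feature Extraction 10.7.3.1, which also gives a log10 ratio per spot. The authors also deposited a table of log2 values, used here as the main values. Set against scanner values, they tracked loess-corrected log2 Cy5/Cy3 medians taken without background subtraction (slope 0.978 to 0.988, r 0.990 to 0.994), column medians lay between 0.00569 and 0.0165, and the exact dye correction stays unknown. No dyes were swapped, per the labels.

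Of 62976 spots per array, 4259 were controls, and the rest made 30367 probes. Kept were the 17904 probes that 4 or more of the 8 arrays showed well above background in Cy5. RefSeq accessions named 11691 kept probes through the GRCr8 gene table, and a gene is its kept probe of highest mean Cy5. The array files pair no coordinates of that build. No probe was saturated in Cy5. Precision is limited by how few arrays there are.

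The sets were described without a test. AhR and control were compared with limma 3.58.1 in R 4.3.3 (lmFit, eBayes, Benjamini-Hochberg over all kept probes). On simulated data this recovered 46.9% of probes altered 1.5-fold, 87.5% at 2-fold and 96.1% at 3-fold, with 7.8 others called per run. The simulated noise was normal, with the spread of the real probes, and independent between probes. It held no structure shared by the probes of an array, unlike the real data. These shares therefore do not measure recovery in the real contrast. The members and the 46 gene lists were chosen with earlier results of these data known. Named genes were the 12 with the largest differences in each direction without overlap, the 3 with the largest differences in each of the 10 lists with the largest medians (at least 5 measured members), all measured clock genes, and Cyp1a1 and Cyp1a2. A result among these is not reported here. Others were chosen after their values were seen. Alternatives covered normexp (offset 50) with loess, Agilent processed signals, median centring, Cy5 alone, the probe filter, the mean over probes, a 2-fold mark, slide row, replicate number and each array left out. Same-numbered pools were checked for pairing and did not deviate together (r -0.003, -0.072, 0.048 and -0.366).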

Additional observations from a re-analysis of the deposited data

Results flagged for a closer look

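Among the named genes, 142 checks of a gene within an exposure group of 4 arrays looked for a single array far from the other 3 (a gap past Dixon's critical value for 4 samples, which chance gives in about 5% of groups), and 11 met it. In the control group, control pool 4, the one control array of set 2, stood apart for Vom2r34 at -0.76, Lcn2 at -0.05, Apoc2 at 0.42 and Sds at 0.68, and control pool 2 stood apart for Jun at -0.70. In the AhR group, AhR pool 4, the one AhR array of set 1, stood apart for Slc6a6 at 1.40, Znrf4 at 0.81, Amacr at 0.18, Kpna4 at -0.05 and Lcn2 at -0.41. AhR pool 3 stood apart for Slc4a1 at -1.82. In 9 of the 11 cases the array was thus the lone one of its set within its exposure group, and the genes had been named for a large set difference, so nothing is read from this count. Each value is a log2 ratio.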

How the results depend on the processing

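In the set contrast, the count of 157 probes past 1.5-fold without overlap became 395 with Agilent processed signals (104 higher and 291 lower in set 2), 574 with normexp and median centring (561 higher and 13 lower), 91 with Cy5 alone (4 higher and 87 lower) and 8 at a 2-fold mark (2 higher and 6 lower). Leaving out 1 array at a time gave 143 to 279, the highest without control pool 3, and 259 without AhR pool 3, though sets with fewer arrays avoid overlap more readily. Median centring raised the list medians to 0.501 for endoplasmic reticulum stress, 0.525 for amino acid catabolism, 0.479 for apolipoproteins, 0.431 for hepatocyte, 0.479 for stellate cell and 0.436 for smooth muscle markers, with the median of all genes at 0.226. Cy5 alone lowered the median of apolipoproteins to 0.132, endoplasmic reticulum stress to 0.115, stellate cell markers to 0.107 and hepatocyte markers to 0.118. Keeping all probes lowered clock output to 0.177 and smooth muscle markers to 0.043, and the mean over kept probes lowered the latter to 0.075. The cause of these shifts was not tested. The first component held 29.39% of variance with normexp and loess and 29.91% with probes detected on all 8 arrays. The exposure contrast called 0 probes in all 17 settings run, with 149 to 809 at an unadjusted limma p below 0.05. With a replicate block it called 0, with 259 at an unadjusted p below 0.05, and with slide row as a block 0, with 302. The 4 arrays per group, 1 slide and no dye swap limit these values.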
